A study of Mus musculus with 16 samples.

Results

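The Rab GTPases of mouse dendritic cells were followed across 16 arrays of sorted type 1 conventional dendritic cells (cDC1). Members were all genes whose symbol is Rab followed directly by a digit, each read from its brightest probe set. That gave 70 symbols among 19938 genes. Of these, 59 encode Rab GTPases, and the other 11 are partners or neighbours whose symbols begin the same way (Rab10os, Rab11fip1 to Rab11fip5, Rab3gap1, Rab3gap2, Rab3il1, Rab3ip and Rab5if), which are described apart. The cells came from inguinal lymph nodes of C57BL/6 mice 6 days after regressor tumours were placed in the flank. The 4 groups were KO draining (WDFY4 KO mice, node on the tumour side), Het draining (WDFY4 Het mice, node on the tumour side), KO non-draining (KO mice, node of the other flank) and Het non-draining (Het mice, node of the other flank), with 4 arrays each. All mice carried tumours and no wild-type group was used here, so every comparison sets KO against Het cells or one node against the other. The labels name no Cre or promoter, do not give the deleted part of Wdfy4 and leave unsaid whether each array had its own mouse. The p-values thus cover the variation between arrays, which may be technical.

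Rab proteins are small GTPases that mark the membranes of each compartment. They bind GTP when an exchange factor loads them, recruit effectors that tether, move or fuse vesicles, and are switched off by GTPase-activating proteins. Prenyl groups hold them on membranes, and GDI extracts them again. In cDC1, which present antigen taken up from dead cells on MHC class I, Rab proteins direct the phagosome, the recycling endosome and the traffic of MHC molecules. Rab43 has been reported as needed for this cross-presentation in mouse CD8 alpha dendritic cells, and WDFY4, a BEACH-domain protein, is needed for it as well.

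Promoters are shown for 4 members that the results return to: Rab43 for its role in cDC1, Rab32 for its opposite differences in the nodes, Rab4b for its difference in the draining node, and Rab27a for its E-box. RefSeq entries on GRCm38.p6, from 250 bases before to 50 bases after a start, were given for 48 of the 59 GTPases (60 entries). Capitals mark matches, on either strand, to an E-box spelled CACGTG, to a GC box spelled GGGCGG, to a CCAAT box spelled as its name and to an AP-1 site spelled TGANTCA. Each sequence runs 5′ to 3′ on the gene's strand, and Rab43 is shown at the first of its 4 starts and Rab27a at the second of its 2.
Rab43, chr6:87812115-87812414, strand minus: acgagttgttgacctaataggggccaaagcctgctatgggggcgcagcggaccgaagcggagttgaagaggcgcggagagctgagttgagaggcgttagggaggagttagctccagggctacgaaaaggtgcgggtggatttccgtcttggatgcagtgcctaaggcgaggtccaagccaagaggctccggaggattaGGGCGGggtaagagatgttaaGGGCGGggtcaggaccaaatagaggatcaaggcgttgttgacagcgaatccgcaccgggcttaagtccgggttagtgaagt
Rab32, chr10:10558158-10558457, strand minus: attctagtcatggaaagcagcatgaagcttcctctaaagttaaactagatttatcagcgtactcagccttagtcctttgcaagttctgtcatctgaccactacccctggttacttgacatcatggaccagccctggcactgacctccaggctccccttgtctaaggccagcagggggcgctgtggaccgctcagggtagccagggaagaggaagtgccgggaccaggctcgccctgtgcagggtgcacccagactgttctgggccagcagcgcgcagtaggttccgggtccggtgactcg
Rab4b, chr7:27178834-27179133, strand minus: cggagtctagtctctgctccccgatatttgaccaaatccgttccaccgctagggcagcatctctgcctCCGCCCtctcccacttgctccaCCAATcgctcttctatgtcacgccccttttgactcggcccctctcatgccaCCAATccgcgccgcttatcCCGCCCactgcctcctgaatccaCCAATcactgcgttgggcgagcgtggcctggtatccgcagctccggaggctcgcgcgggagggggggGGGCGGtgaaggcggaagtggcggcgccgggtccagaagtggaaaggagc
Rab27a, chr9:73063898-73064197, strand plus: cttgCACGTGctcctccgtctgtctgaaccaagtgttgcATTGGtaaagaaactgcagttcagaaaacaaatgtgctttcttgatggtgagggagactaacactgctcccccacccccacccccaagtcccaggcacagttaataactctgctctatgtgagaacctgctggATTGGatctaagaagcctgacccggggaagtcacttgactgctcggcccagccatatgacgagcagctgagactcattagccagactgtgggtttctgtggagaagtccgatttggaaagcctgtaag
The Rab4b promoter holds 3 GC boxes and 3 CCAAT boxes, the Rab43 promoter 2 GC boxes, and the Rab27a promoter 1 E-box and 2 CCAAT boxes. None of these letters were found in the Rab32 window. Over the family, 68.3% of the 60 promoters held a GC box, against 35.7% of all 32851 promoters, and 43.3% held a CCAAT box, against 37.4% of all. The E-box stood in 6 of the family's 60 promoters (Rab20, Rab21, Rab23, Rab24, Rab27a and Rab5a) and in 7.2% of all, and the AP-1 letters in 3 of 60 (Rab15, Rab34 and Rab39b) and in 7.8% of all. Entries of a gene with several starts overlap in part, and a match describes the letters only.

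Intensities are linear RMA values as deposited. There is no read depth behind them, and precision is limited by the number of arrays. The arrays had median intensities of 38.6 to 40.8. The sorted cells carried the cDC1 label's markers: 13 of 13 cDC1 markers, among them Xcr1, Clec9a, Batf3 and Irf8, lay above the median of all genes, but so did markers of other cells: 9 of 9 T cell, 5 of 5 plasmacytoid dendritic cell (among them Bst2 and Tcf4), 5 of 7 B cell, 2 of 5 NK cell, 2 of 5 macrophage and monocyte, 2 of 6 cDC2 and 0 of 4 neutrophil markers. The T cell markers had a summed level, given as the mean log2 value of the list, of 6.974 to 7.8 in KO draining, 6.637 to 7.504 in Het draining, 6.398 to 7.595 in KO non-draining and 6.892 to 7.757 in Het non-draining cells. Wdfy4 itself gave 1786 to 2785 in KO draining and 2463 to 3450 in Het draining cells, and 1923 to 3165 in KO non-draining and 2278 to 3332 in Het non-draining cells, log2 differences of -0.40 and -0.25 that did not pass in limma (adjusted p = 1.00 in both nodes). Whether the probe set lies inside the deleted part is not known here, so these values do not check the genotype labels.

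The array KO draining 2 stood apart over all genes as well as for this family. It held the lowest of the 16 values for 21 of the 59 GTPases (35.6%), while it was lowest for 17.1% and highest for 17.6% of all genes. The median GTPase lay 0.17 below its 16-array mean there on the log2 scale, and the 40 GTPases above the median of all genes lay 0.26 below, against 0.14 below for all genes above that median. The 6 migratory dendritic cell markers (5 above the median of all genes) had a mean log2 value of 9.52 there. On the other KO draining arrays it was 10.28, 10.09 and 10.12. The part of these markers in the Rab values was not tested. Rab22a, a GTPase of endocytic recycling, read 87.42 on KO draining 2, against 173.4, 189.6 and 199.9 on the other KO draining arrays. Het draining 1 was next, with the lowest value for 9 GTPases (15.3%, against 8.24% of all genes). Without KO draining 2 the KO minus Het difference of the draining node turned its sign for 18 of the 59 GTPases, and the difference between the nodes in KO cells for 14 of 59. The values without that array stand beside those Rab and regulator differences below that it moved by more than 1.5 times or turned.

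**Figure D1:**
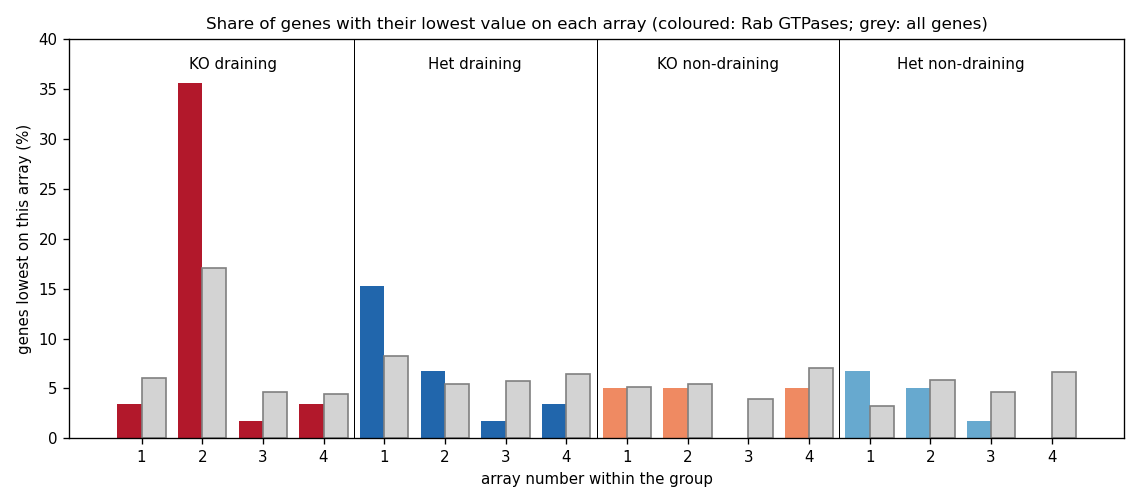
Share of genes, in percent, that had their lowest of 16 values on each array, for the 59 Rab GTPases (coloured bars) and for all 19938 genes (grey bars), by group and array number. KO draining 2 reaches 35.6% for the GTPases against 17.1% for all genes.

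**Figure D2:**
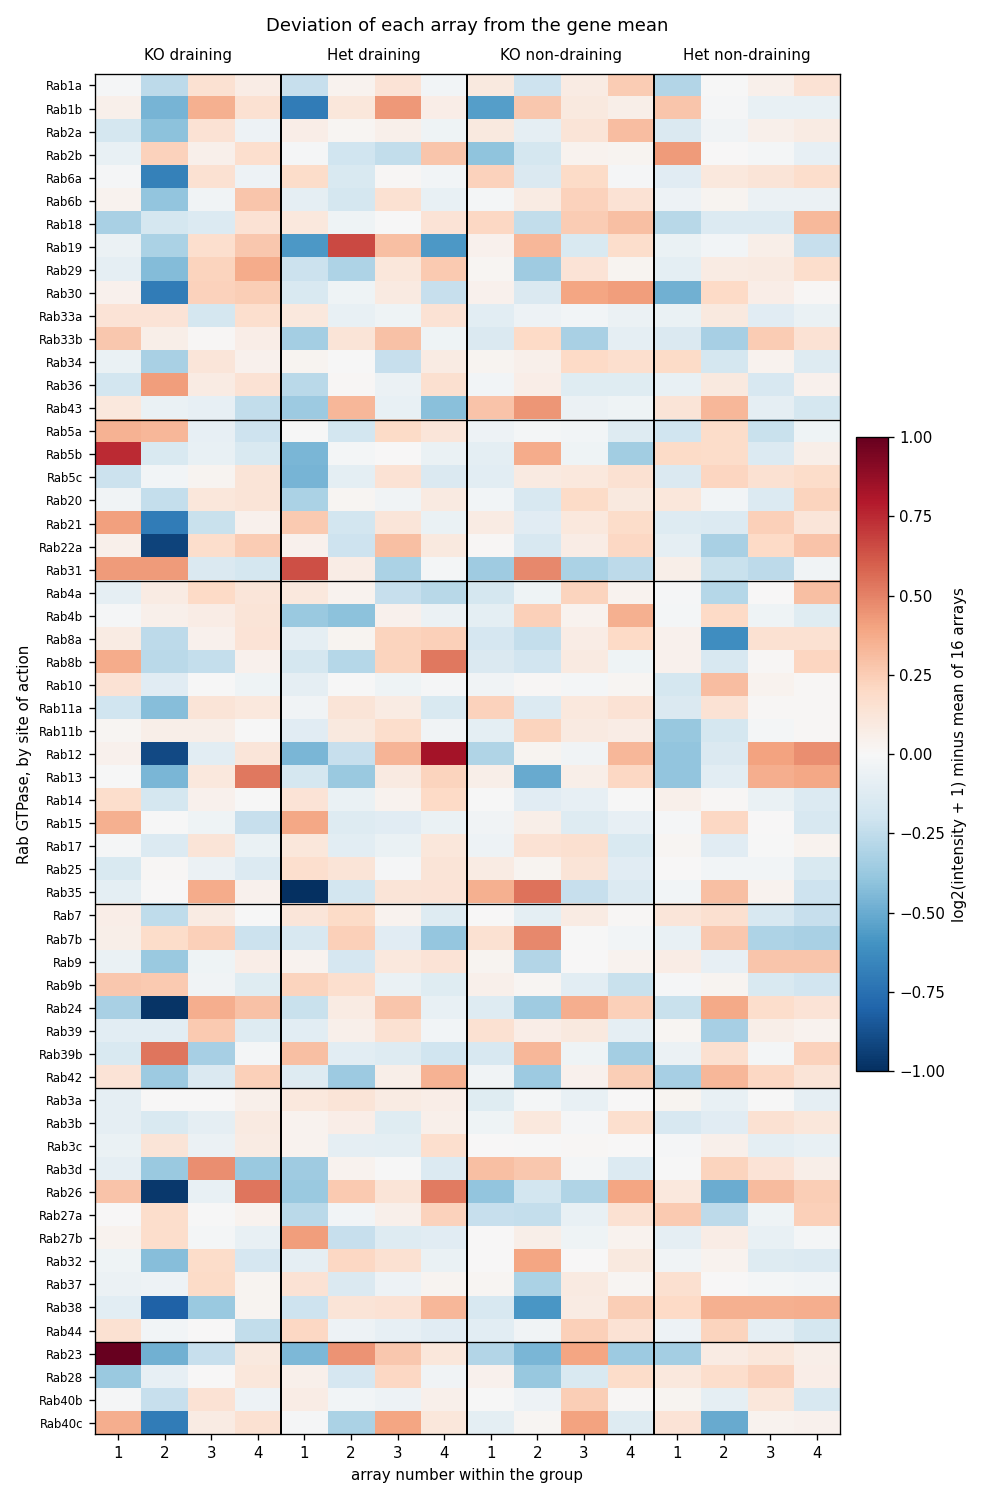
Deviation of each of 16 arrays (columns, by group) from the gene's mean log2(intensity + 1) for 59 Rab GTPases (rows, by site of action). Colours end at ±1, which Rab23 on KO draining 1 (1.03) and Rab35 on Het draining 1 (-1.03) pass, and the KO draining 2 column holds the lowest value of the row for 21 of the 59 GTPases.

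Of the 59 GTPases, 40 had a mean above the median of all genes (intensity 46.8) and 19 at or below it. Those at or below it included Rab33a, Rab3b, Rab3c and Rab15, with means of 8.86, 10.5, 11.7 and 11.9, whose differences RMA compresses. All 7 early endosome GTPases lay above that median.

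None of the 59 GTPases passed in limma, at an adjusted p of 0.05, in the 7 comparisons, and no other gene did (0% of 19938 genes in each). Comparing KO with Het draining cells, 3 of the 59 GTPases had an unadjusted p under 0.05 (Rab4b with a positive, Rab38 and Rab25 with a negative difference), against 3.39% of all genes. Comparing KO with Het non-draining cells, it was 1 GTPase, Rab38, against 2.48% of all genes. For draining against non-draining nodes it was 0 in Het cells, against 3.29% of all genes, and 0 in KO cells, against 2.11%. The interaction of genotype and node gave 1 (Rab25), against 2.32%. The mean of KO against Het over both nodes gave 2 (Rab38 and Rab4b), against 3.49%, and the mean of draining against non-draining over both genotypes gave 0, against 3.06%. With 59 GTPases these counts are near the background shares. Groups without overlap were found for 1 GTPase in KO against Het draining cells (Rab3a, against 1.58% of all genes), for 0 in KO against Het non-draining cells (against 2.39%), for 1 between the nodes in Het cells (Rab3a, against 2.4%) and for 0 between the nodes in KO cells (against 1.44%).

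The median log2 difference of the 59 GTPases between KO and Het cells was 0.011 in the draining node, where that of all genes was -0.0026, and 0.010 in the non-draining node, where that of all genes was 0.0048. In each node 32 GTPases had a positive and 27 a negative difference. Between draining and non-draining nodes the median was 0.0092 in Het cells (all genes 0.0081) and -0.038 in KO cells (all genes 0.0018). In KO cells 34 of 59 GTPases were negative, against 9837 of all 19938 genes. Of the 40 GTPases above the median of all genes, 25 were negative, with a median of -0.050. Of the 9969 genes above that median, 5764 were negative, with a median of -0.026. Without KO draining 2 the KO node median of the 59 GTPases was 0.025, with 26 negative, and the draining genotype median was 0.029. Each array enters a genotype and a node comparison, so these values are not independent.

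**Figure D3:**
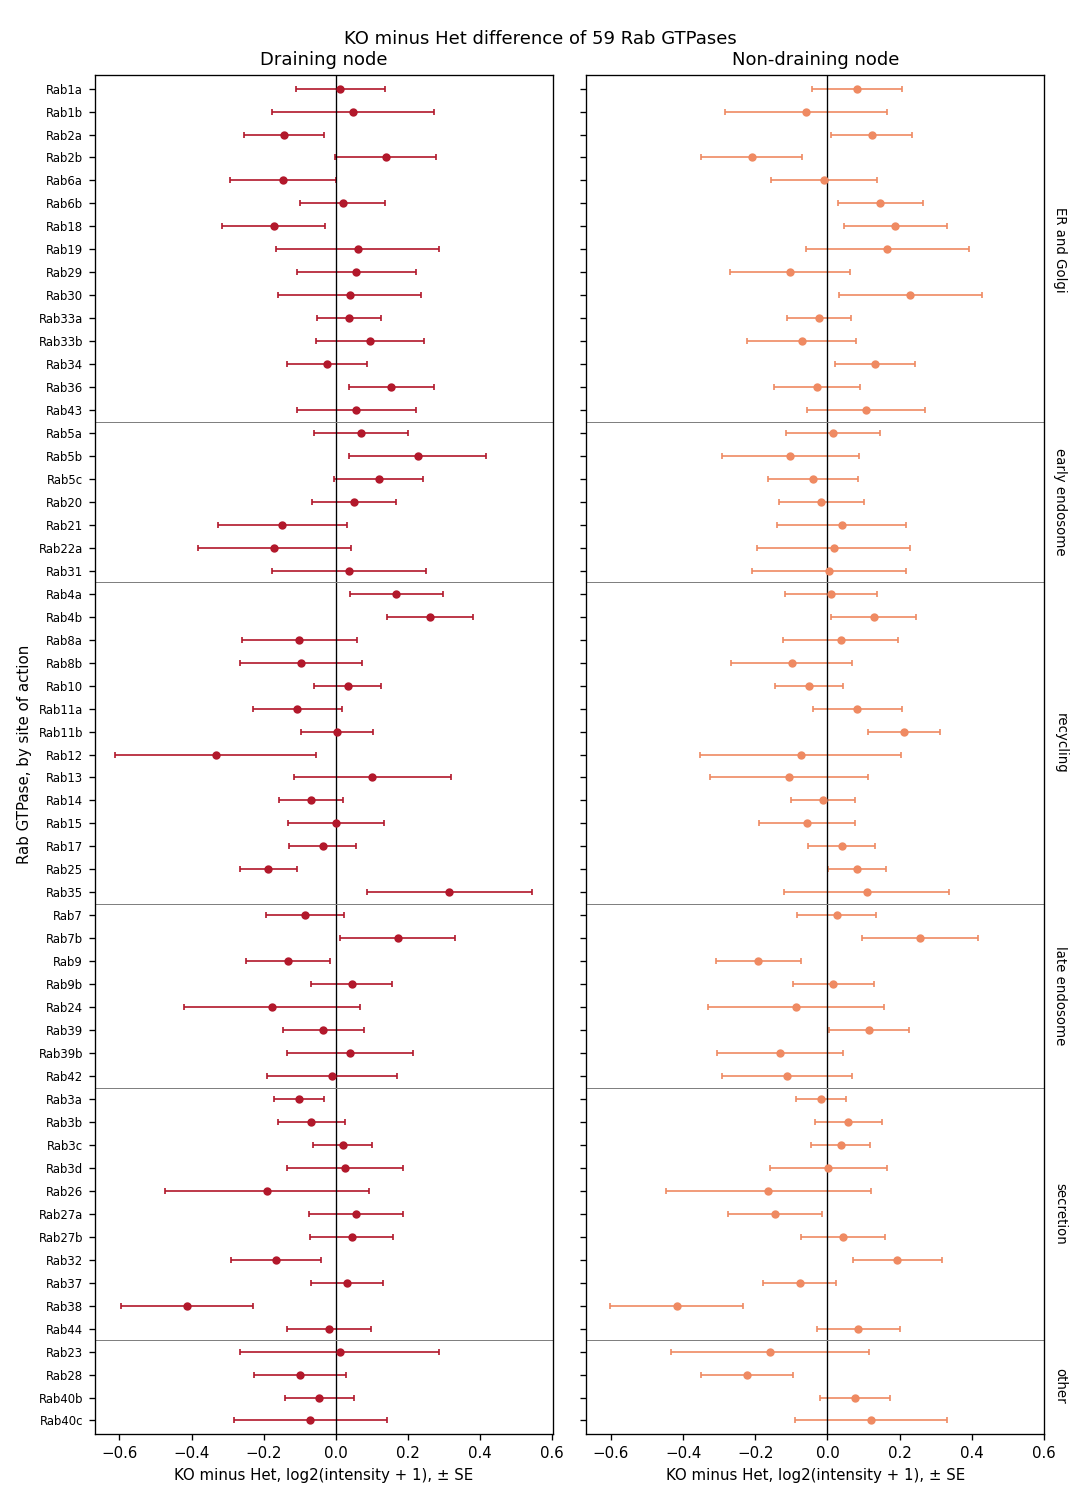
Log2 difference of KO minus Het cells for 59 Rab GTPases (rows, by site of action) in the draining node (left) and the non-draining node (right), with points for the estimate and bars for the standard error in limma. Rab38 lies near -0.4 in both nodes, and differences of the family run from -0.41 to 0.31 in the draining node and from -0.42 to 0.26 in the non-draining node.

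Rab38 and Rab32 are close relatives that act in melanosomes and other lysosome-related organelles, and Rab32 has been linked to phagosomes. Rab38 (chr7:88430273-88491572) read 64.54, 39.22, 53.43 and 70.98 in KO draining cells, against 60.13, 75.91, 76.82 and 87.76 in Het draining cells. In the non-draining node it read 62.23, 46.02, 73.83 and 82.83 in KO cells, against 79.88, 89.16, 89.19 and 89.45 in Het cells. KO values reach lower in both nodes, and the groups overlap in both. The log2 difference was -0.41 ± 0.18 (SE) in the draining node (exact two-sided permutation p = 0.114) and -0.42 ± 0.18 in the non-draining node (exact p = 0.0571), where 4 arrays against 4 cannot go below 0.0286. Its mean over both nodes, -0.42 ± 0.13, had the smallest p of the family in any comparison (unadjusted p = 0.00537 in limma) and did not pass over all genes (adjusted p = 1.00). Single arrays carry part of it. Without KO draining 2 the draining difference was -0.25, and without KO non-draining 2 the non-draining one was -0.26. Arrays 3 and 4 taken alone gave -0.41 (draining) and -0.19 (non-draining), and arrays 1 and 2 alone gave -0.42 (draining) and -0.65 (non-draining). In sorted cells read in bulk, fewer cells of a kind and less RNA per cell cannot be told apart.

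Rab32 (chr10:10545039-10558207) differed in sign between the nodes. It read 733.2, 564.8, 858.9 and 674.3 in KO draining cells, against 711.7, 874.7, 843.8 and 724.8 in Het draining cells. Its non-draining values were 761.0, 996.5, 761.3 and 812.6 in KO cells, against 740.0, 776.0, 693.7 and 687.2 in Het cells. All groups overlap. The log2 differences were -0.17 ± 0.12 and 0.19 ± 0.12, and their difference, the interaction, was -0.36 ± 0.18 (unadjusted p = 0.0564 and adjusted p = 1.00 in limma). Without KO draining 2 the interaction was -0.26 and the draining difference -0.064, and without KO non-draining 2 the non-draining one was 0.11.

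Rab27a, which drives the docking of secretory lysosomes and, in mouse dendritic cells, the delivery of NADPH oxidase to phagosomes, read 89.73, 101.3, 89.64 and 91.7 in KO draining cells, against 74.16, 88.14, 92.96 and 105.2 in Het draining cells. Non-draining values had their lowest at 76.04 in KO cells, against 74.64 in Het cells, with means of 84.43 ± 11.24 in KO and 93.94 ± 15.91 (SD, n = 4 each) in Het cells. The ranges overlap in both nodes, with log2 differences of 0.055 ± 0.13 and -0.15 ± 0.13, and the draining one was 0.015 without KO draining 2. Rab3a, the synaptic vesicle GTPase and a gene below the median of all genes, was the single GTPase whose draining groups did not overlap between genotypes. It read 24.47, 26.18, 26.2 and 27.12 in KO draining cells, against 28.24, 28.66, 27.64 and 27.36 in Het draining cells, a log2 difference of -0.10 ± 0.069 (exact p = 0.0286, unadjusted p = 0.154 in limma). The Het draining values also lay above all Het non-draining ones (26.67, 24.79, 26.07 and 24.52), a difference of 0.13 ± 0.069. Rab3d, which coats secretory granules, had a node difference averaged over genotypes of -0.21 ± 0.11 (unadjusted p = 0.09 in limma). Over the alternative runs described below, that Rab3d difference ran from -0.39 to -0.020. Of the 11 GTPases of secretion and lysosome-related organelles, 5 had a positive and 6 a negative KO minus Het difference in the draining node, and 6 and 5 in the non-draining node.

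Rab43 (chr6:87788853-87812164), a Golgi GTPase, read 611.5, 544.6, 537.6 and 480.0 in KO draining cells, against 442.8, 719.2, 540.6 and 426.5 in Het draining cells. Rab43 in the non-draining node read 693.0, 775.7, 546.6 and 551.6 in KO cells, against 621.8, 718.5, 534.6 and 504.8 in Het cells. KO and Het values overlap throughout in both nodes. The KO minus Het log2 difference was 0.057 ± 0.16 (95% interval -0.29 to 0.41) in the draining node and 0.11 ± 0.16 (-0.24 to 0.46) in the non-draining node. Leaving out 1 array at a time, they ran from -0.039 to 0.21 and from 0.010 to 0.20. The 4 KO draining arrays averaged 543.4 ± 53.84 (SD) and the 4 KO non-draining arrays 641.7 ± 112.2. The node difference of Rab43 averaged over genotypes was -0.20 ± 0.12 (unadjusted p = 0.0989 in limma), with an interval that includes 0.

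Of the 15 ER and Golgi GTPases measured, Rab43 included, 11 had a positive and 4 a negative KO minus Het difference in the draining node, with a median of 0.038, and 8 and 7 in the non-draining node, with a median of 0.082. Rab2a, which acts between the ER and the Golgi, read 924.8, 785.5, 1161 and 1012 in KO draining cells, against 1121, 982.1, 1144 and 1295 in KO non-draining cells, a log2 difference of -0.23 ± 0.11 (unadjusted p = 0.0527 in limma) that was -0.14 without KO draining 2. In Het cells the same node difference was 0.033 ± 0.11. Its relative Rab2b differed by 0.22 ± 0.14 between the nodes in KO cells and had an interaction of 0.35 ± 0.20 (unadjusted p = 0.097 in limma). Over the alternative runs described below, the Rab2b node difference ran from 0.073 to 0.37 and its interaction from 0.0052 to 0.69. Rab18, a GTPase of the ER and lipid droplets that lay below the median of all genes, differed by -0.26 ± 0.14 between the nodes in KO cells, with an interaction of -0.36 ± 0.20. Rab34, a Golgi GTPase reported in phagosome maturation, averaged 30.5 in KO draining and 30.9 in Het draining cells.

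**Figure D4:**
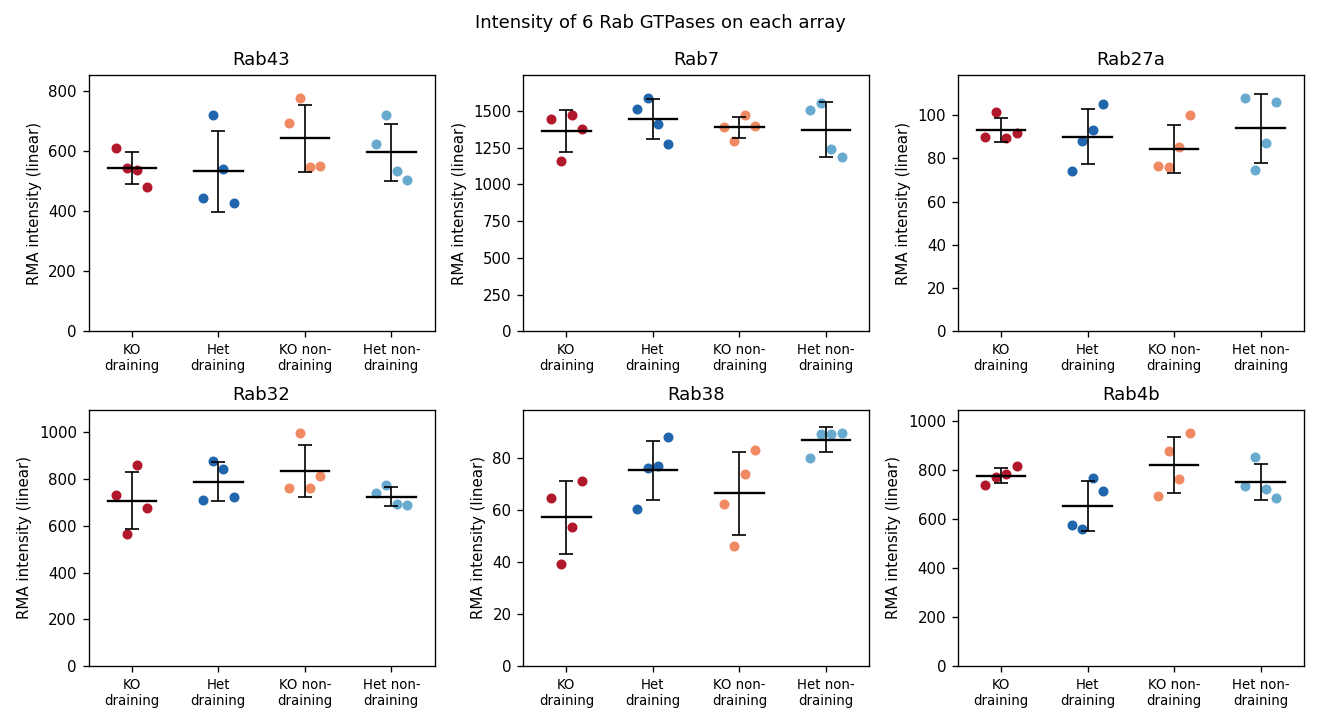
RMA intensity (linear, from 0) of Rab43, Rab7, Rab27a, Rab32, Rab38 and Rab4b on each array, by group. Points are arrays, the long bar is the mean and the whisker the SD of 4 arrays. Rab38 reaches lower in KO than in Het cells in both nodes, and the Rab4b KO draining arrays lie between 740.6 and 814.4.

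Rab4b, a GTPase of rapid recycling from early endosomes (chr7:27168433-27178883), read 740.6, 771.1, 783.7 and 814.4 in KO draining cells, against 576.1, 560.5, 767.6 and 714.5 in Het draining cells. Only the Het array with 767.6 overlaps the KO range. The log2 difference was 0.26 ± 0.12 (unadjusted p = 0.044 and adjusted p = 1.00 in limma, exact p = 0.0571), and it was 0.11 from arrays 3 and 4 alone and 0.41 from arrays 1 and 2 alone. Among non-draining cells, KO arrays read 694.7, 878.0, 764.2 and 951.1, against 736.5, 854.2, 721.6 and 684.9 in Het cells, a difference of 0.13 ± 0.12 that was 0.054 without KO non-draining 4. Rab25, a Rab11 relative known from epithelia that lay below the median of all genes, read 33.58, 37.66, 35.97 and 34.01 in KO draining cells, against 42.16, 40.94, 37.21 and 40.99 in Het draining cells, a difference of -0.19 ± 0.079 (unadjusted p = 0.0309 in limma). Its interaction was -0.27 ± 0.11 (unadjusted p = 0.0285, adjusted p = 1.00 in limma), with a non-draining difference of 0.082 ± 0.079.

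Rab11a, Rab14, Rab10 and Rab8b had KO minus Het differences smaller than their errors in both nodes. Rab11a, which carries recycling endosomes and delivers MHC class I to phagosomes, had KO minus Het differences of -0.11 ± 0.12 (draining) and 0.083 ± 0.12 (non-draining). Rab14, of early and storage endosomes, had -0.068 ± 0.089 and -0.013 ± 0.089, and Rab10, of exocytic and recycling traffic, 0.033 ± 0.094 and -0.051 ± 0.094 in the same order. Rab8b, also exocytic, had -0.096 ± 0.17 and -0.099 ± 0.17. The draining values without KO draining 2 were 0.0031 for Rab11a, -0.0056 for Rab14, 0.070 for Rab10 and -0.014 for Rab8b. Rab35, of fast recycling, had the largest positive draining difference of the family, 0.31 ± 0.23. It read 160.9, 172.8, 223.8 and 177.3 in KO draining cells, against 84.14, 151.7, 188.7 and 190.0 in Het draining cells. The value of 84.14, Het draining 1, carries most of it, and without that array the difference was 0.051. Rab11b read 514.8, 645.4, 588.4 and 580.1 in KO non-draining cells, against 423.6, 489.2, 545.4 and 556.5 in Het non-draining cells, a difference of 0.21 ± 0.10 (unadjusted p = 0.0501 in limma) that was 0.13 without Het non-draining 1. Its dimmer probe set gave 0.053.

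The brighter probe sets of Rab2a, Rab5b and Rab11b are uncertain. Their neighbours in probe set number lay on chromosomes 5, 2 and 19 (20 of 20 for each), whereas the genes lie on chromosomes 4, 10 and 17, where 20, 18 and 20 of the 20 neighbours of the dimmer probe sets lie. Whether they read near-identical copies elsewhere was not tested. For Rab2a the KO node difference was -0.23 with the brighter and -0.17 with the dimmer probe set, and for Rab5b the draining genotype difference was 0.23 and 0.22.

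Early endosome and phagosome GTPases act first on the uptake route. Rab5b, of the Rab5 family that fuses early endosomes, read 888.2, 475.6, 501.0 and 474.6 in KO draining cells, against 384.5, 521.4, 529.3 and 503.3 in Het draining cells. One high KO array and one low Het array set the difference of 0.23 ± 0.19, which was 0.00849 without KO draining 1 and 0.12 without Het draining 1. Its relatives Rab5a and Rab5c had draining differences of 0.069 ± 0.13 and 0.12 ± 0.12. Rab5c also had the smallest p among the GTPases for the node comparison in Het cells, with 258.9, 334.9, 396.9 and 324.9 in the draining node, against 323.9, 416.2, 397.5 and 407.8 in the non-draining node, a difference of -0.24 ± 0.12 (unadjusted p = 0.069 in limma) that was -0.13 without Het draining 1. The draining genotype difference of Rab5c was 0.0096 without that array. Rab20, of phagosome maturation, had KO minus Het differences of 0.050 ± 0.12 and -0.017 ± 0.12, Rab22a of -0.17 ± 0.21 and 0.017 ± 0.21, and Rab31, of traffic from the Golgi to endosomes, of 0.037 ± 0.21 and 0.0033 ± 0.21. For both, one array lay far from the others of its group, with 87.42 for Rab22a on KO draining 2 and 763.2 for Rab31 on KO non-draining 2. Without KO draining 2 the draining difference of Rab22a turned to 0.10, that of Rab31 to -0.061 and that of Rab5a to -0.0078, while that of Rab20 was 0.13. Without KO non-draining 2 the non-draining difference of Rab31 was -0.19.

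Late endosome GTPases act on the route to the lysosome. Rab7, which fuses late endosomes and phagosomes with lysosomes, read 1445, 1159, 1472 and 1380 in KO draining cells, against 1510, 1587, 1412 and 1273 in Het draining cells. The ranges overlap, with a difference of -0.085 ± 0.11 (draining) and 0.026 ± 0.11 (non-draining). The draining difference of Rab7 was -0.0090 without KO draining 2, which read 1159. Rab7b, of transport between late endosomes and the Golgi, averaged 0.21 ± 0.11 higher in KO cells over both nodes on the log2 scale (unadjusted p = 0.0765 in limma), with 677.6 to 926.7 in KO draining, 600.2 to 925.8 in Het draining, 771.5 to 1098 in KO non-draining and 630.0 to 950.3 in Het non-draining cells. Rab9, which returns receptors from late endosomes to the Golgi, averaged -0.16 ± 0.083 over both nodes (unadjusted p = 0.0685 in limma), with 1263 to 1583 in KO non-draining and 1458 to 1876 in Het non-draining cells. Its relative Rab9b had a node difference averaged over genotypes of 0.15 ± 0.079 (unadjusted p = 0.0812 in limma). Of 8 late endosome GTPases, 3 had a positive and 5 a negative KO minus Het difference in the draining node. Rab28, a GTPase of cilia, differed by -0.22 ± 0.13 between the genotypes in the non-draining node (unadjusted p = 0.0976 in limma), and by -0.12 without KO non-draining 2.

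None of the 11 other symbols passed in limma, and 7 of 11 had a positive KO minus Het difference in each node. Rab5if, named here after its values were seen, read 811.4, 668.9, 634.0 and 757.3 in KO non-draining cells, against 574.3, 622.8, 614.0 and 573.7 in Het non-draining cells. These groups do not overlap (exact p = 0.0286), with a log2 difference of 0.26 ± 0.14 (unadjusted p = 0.0829 in limma), where 2.39% of all genes had groups without overlap. Rab11fip5, a Rab11 effector also named after its values were seen, read 47.36, 38.31, 56.6 and 53.99 in KO draining cells, against 66.16, 61.0, 56.62 and 63.2 in KO non-draining cells. It differed by -0.34 ± 0.12 (unadjusted p = 0.0103, adjusted p = 1.00 in limma) and by -0.23 without KO draining 2, where 1.44% of all genes had groups without overlap.

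The regulators of the family were read from lists of 7 prenylation and GDI genes, 25 exchange factors, 31 GTPase-activating proteins and 30 effectors, and 0 of these 93 passed in limma in any comparison. Those named had 1 of the 2 smallest unadjusted p in a comparison. Comparing KO with Het draining cells, 2 genes of the GTPase-activating protein list with a positive difference had an unadjusted p under 0.05 in limma. With a negative difference, 1 gene of that list did, Tbc1d24, whose activity on Rab proteins was not tested here. So did 1 exchange factor, 1 effector and 0 prenylation and GDI genes, against 3.39% of all genes. Tbc1d24, a TBC-domain protein of vesicle traffic, read 29.34, 26.84, 36.26 and 28.48 in KO draining cells, against 48.83, 38.56, 41.52 and 34.32 in Het draining cells. One KO value, 36.26, overlaps the Het range. The difference was -0.42 ± 0.12 (unadjusted p = 0.00304, adjusted p = 1.00 in limma), and the interaction was -0.48 ± 0.17 (unadjusted p = 0.0115). Tbc1d24 lies below the median of all genes. In KO cells it also differed by -0.31 ± 0.12 between draining and non-draining nodes. Rilp, the Rab7 effector that recruits dynein, had a draining difference of 0.25 ± 0.11 and an interaction of 0.37 ± 0.16 (unadjusted p = 0.032 in limma). Tbc1d1, known as a Rab GTPase-activating protein of glucose transporter traffic, read 159.8, 178.6, 190.0 and 174.5 in KO non-draining cells, against 219.3, 206.0, 201.4 and 226.9 in Het non-draining cells, without overlap. In that comparison 1 GTPase-activating protein, 1 exchange factor and no other regulator had groups without overlap, against 2.39% of all genes. The mean difference of Tbc1d1 over both nodes was -0.27 ± 0.10 (unadjusted p = 0.0181 in limma), where 3.49% of all genes had an unadjusted p under 0.05. Tbc1d2, a Rab7 GTPase-activating protein, averaged 0.17 ± 0.068 over both nodes, and Tbc1d22a differed by 0.19 ± 0.089 between the nodes in KO cells.

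Dennd4a, an exchange factor of Rab10, read 944.2, 932.4, 936.8 and 1092 in Het draining cells, against 1201, 1345, 1134 and 1312 in Het non-draining cells, without overlap (as 2.4% of all genes), a log2 difference of -0.35 ± 0.16 (unadjusted p = 0.0376, adjusted p = 1.00 in limma). In KO cells its node difference was -0.085 ± 0.16, and -0.21 without KO draining 2. Usp6nl, a Rab5 GTPase-activating protein, differed by 0.50 ± 0.24 between the nodes in Het cells, Mical1, a Rab-binding actin oxidase, by 0.26 ± 0.14 between KO and Het non-draining cells, and Chml, a Rab escort protein, by 0.32 ± 0.15 between the nodes over both genotypes (unadjusted p = 0.0484 in limma). Without Het non-draining 2, which read 71.31, the Usp6nl difference was 0.28. Chml read 111.3 on KO draining 2, against 52.17 to 61.42 on the other KO draining arrays, and without it the Chml difference was 0.20. Of the 25 exchange factors, 17 were negative in the Het node comparison and 16 in the KO one, with medians of -0.068 and -0.031. Among all 19938 genes, 9404 were negative in Het and 9837 in KO cells, with medians of 0.0081 and 0.0018. Of the 9969 genes above the median of all genes, 5216 and 5764 were negative, with medians of -0.0074 and -0.026.

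Marker lists also leaned to one side in these comparisons, though no marker passed in limma, and their part in the Rab values was not tested. Markers of a list are not independent of each other, and 49.1% (draining) and 51.9% (non-draining) of all genes were positive. The 9 T cell markers measured all had a positive KO minus Het difference in the draining node (median log2 difference 0.34) and a negative one in the non-draining node (-0.38), 7 of 7 B cell markers were positive in the non-draining node (0.46), and 13 of 13 immediate early and digestion genes were positive there (0.40) and 12 of 13 in the draining node (0.32). Of 13 cDC1 markers, 11 were positive in the non-draining node (0.20) and 5 in the draining node (-0.016). Of 6 migratory dendritic cell markers, 1 was positive in the non-draining node (-0.12) and 3 in the draining node (-0.022). Mean log2 values per array overlapped between genotypes in both nodes for the T cell and B cell lists. Those of the digestion list did not overlap in the non-draining node (9.669 to 9.92 in KO, 9.25 to 9.578 in Het cells).

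The array numbers split some members. On arrays numbered 3 and 4, Rab13, of tight junctions and exocytosis, read 85.47 to 118.4, against 57.50 to 85.44 on arrays numbered 1 and 2 (8 arrays each). Rab22a read 175.9 to 206.7 on arrays 3 and 4, against 87.42 to 173.4 on arrays 1 and 2. Both lie higher without overlap, in all 4 groups. Rab9b, at 35.30 to 40.37 against 40.93 to 50.04, and the Rab11 effector Rab11fip1, at 406.3 to 530.4 against 560.6 to 722.6, lie lower on arrays 3 and 4 without overlap. In all, 3 GTPases lay apart, against 1.75% of all genes, and the 59 GTPases had a median difference of 0.090 where all genes had -0.031. Bright genes in general also tended to read higher on arrays 3 and 4. For all genes above the median of all genes, the per-array median deviation was -0.014 to 0.069 there. On arrays 1 and 2 it was -0.14 to 0.0095. For the 40 GTPases above that median it was -0.030 to 0.11 on arrays 3 and 4, against -0.26 to 0.024. The labels do not say what the numbers stand for, and the split was chosen with results known, so it is a description.

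**Figure D5:**
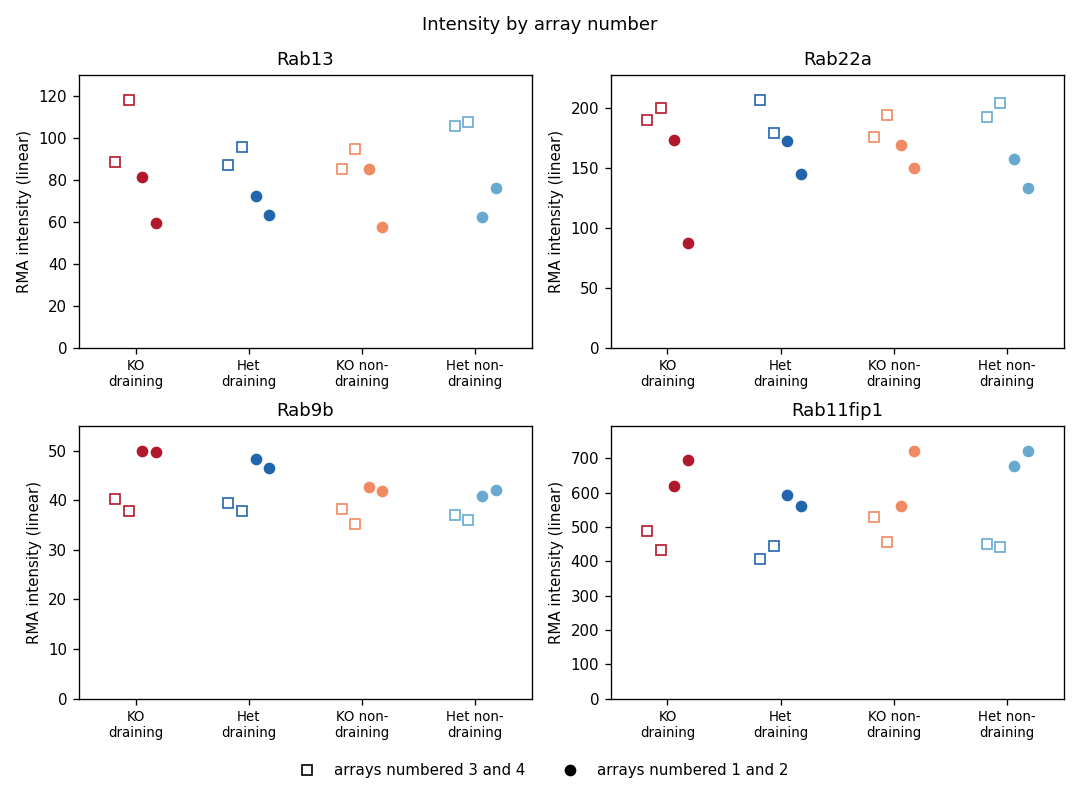
RMA intensity (linear, from 0) of Rab13, Rab22a, Rab9b and Rab11fip1 by group, with open squares for arrays numbered 3 and 4 and filled circles for arrays numbered 1 and 2. In each group the squares lie above the circles for Rab13 and Rab22a and below them for Rab9b and Rab11fip1.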

How the data were processed

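The authors deposited linear array intensity values for 35556 probe sets, for which the submitters' processing notes name RMA. The software that ran it is not given in the sources used here. Its quantile step makes the distributions of the arrays alike, and dim probe sets are compressed. The deposited values were not identical in distribution. Array medians ran from 38.6 to 40.8, and the mean log2 value over all genes from 5.849 (KO draining 2) to 5.898 (KO draining 4). Values were analysed as log2(intensity + 1) with a pseudocount of 1. Probe sets with 1 symbol (21789; 1621 had several, 12146 none) gave 19938 genes by the brightest probe set, and 0 columns were left without a sample. One limma fit (limma 3.58.1, R 4.3.3) of the 4 groups (12 residual degrees of freedom) tested 7 comparisons two-sided, with Benjamini-Hochberg adjustment over all genes at 0.05. Errors after ± are SEs for differences and SDs for means, and the median SE was 0.12 for simple comparisons, 0.18 for the interaction and 0.088 for means. Single genes were also tested with exact permutation.

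Named genes were 18 GTPases of antigen and endosome traffic, the 4 GTPases of smallest p per comparison and the 2 regulators of smallest p per comparison. Members, lists, splits and tests were chosen with earlier results of these data known. Same-numbered arrays correlated at -0.056 to 0.48 in their deviations from group means (12 of 16 above 0.1). All 4 pairs passed 0.1 only for the node comparison in Het cells, which was then also fitted with the number as a block. Alternatives were no or another pseudocount, other probe set rules, centring, a trend, blocks, within-set fits and leaving out arrays. The scripts were tested on simulated data. Figures used Python 3.11.15 and matplotlib 3.10.9.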

Additional observations from a re-analysis of the deposited data

Results flagged for a closer look

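Among 156 sets of 4 arrays (38 named genes and the per-array median deviation of the GTPases, each in 4 groups), 9 values stood far from the other 3 arrays of their group, a gap that chance alone gives in about 1 in 20 groups. Rab5b read 888.2 on KO draining 1, against 474.6 to 501.0 on the others, and 384.5 on Het draining 1, against 503.3 to 529.3. The 3 values of KO non-draining 2 that stood apart were Rab31 at 763.2 (others 427.5 to 456.0), Rab9 at 1263 (others 1546 to 1583) and Rab18 at 21.01 (others 29.16 to 31.15). Rab38 read 79.88 on Het non-draining 1, against 89.16 to 89.45. Among regulators, Dennd4a read 1092 on Het draining 4 (others 932.4 to 944.2), Tbc1d2 25.64 on Het draining 2 (others 28.46 to 29.02) and Usp6nl 71.31 on Het non-draining 2 (others 129.4 to 145.4).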

How the results depend on the processing

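None of the 59 Rab GTPases passed in limma in any alternative run in which calls were counted. The 11 other symbols were not counted in those runs. Over all genes, the mean of KO against Het over both nodes gave 1 call with the replicate block (smallest adjusted p = 0.0315) and 5 within arrays numbered 3 and 4. Within those arrays, KO against Het gave 4 calls (draining) and 2 calls (non-draining), and the node comparison in KO cells gave 1; fewer arrays enter these fits. The replicate block changed no other call. For the node comparison in Het cells, where all 4 same-numbered pairs passed 0.1, it gave 0 calls. Whether the numbers pair the arrays is not known. Of 2417 alternative values of 110 named differences, 2309 kept their direction and 108 did not. For 6 of those the main difference exceeded its standard error. The runs reuse the same arrays, so these counts are not independent support. Within arrays 3 and 4 the draining genotype difference was -0.082 for Rab5b, the Het node difference was 0.22 for Rab35 and 0.0049 for Rab5b, and the KO node difference was -0.026 for Rab27a and -0.061 for Rab5a. Leaving out one array at a time, the Het node difference of Rab35 ran from -0.383 to 0.00564, the higher end without Het draining 1. The causes were not tested. The Rab38 mean over both nodes ran from -0.53 to -0.30 (adjusted p 0.351 to 1). The family's median KO minus Het difference ran from -0.035 to 0.029 (draining) and -0.0033 to 0.028 (non-draining), and its median between the nodes from -0.070 to 0.025 in KO cells, positive only without KO draining 2, and from -0.021 to 0.017 in Het cells. With 4 arrays a group, a difference near the median SE of 0.12 is not resolved, and dim probe sets are compressed.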
